A study of Homo sapiens with 6 samples.

Results

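The transcripts of 10 genes of the epithelial cell junction were followed through 6 human prostate cancer cell lines: the adhesion molecules CDH1 and EPCAM, the claudins CLDN1, CLDN3, CLDN4, CLDN7 and CLDN12, the tight junction protein gene OCLN, and the regulators ESRP1 and GRHL2. They were chosen by name for their role at the junction, from 60658 gene identifiers listed, and all 10 reached 1 FPKM in at least 1 library, as did 17436 genes in all. FPKM is the number of fragments scaled for transcript length and library size, so values can be set side by side between genes. Comparisons between lines take the libraries to be on a common scale, which the sources used here do not state. The 6 lines form 2 lineages of 3 lines each. CTXR is a cabazitaxel-resistant line made from DTXR, DTXR is a docetaxel-resistant line made from DU145, and DU145 is the parental line. CabR is a cabazitaxel-resistant line made from TaxR, TaxR is a docetaxel-resistant line made from C4-2B, and C4-2B is the parental line. DTXR and TaxR were kept under 5 nM docetaxel and CTXR and CabR under 5 nM cabazitaxel, and all cells were untreated before harvest. TaxR is titled TaxR_old, with no explanation of the suffix. Both drugs are taxanes, which keep microtubules from coming apart. DU145 is an androgen-independent prostate carcinoma line, and C4-2B is a castration-resistant derivative of the LNCaP line. With 1 library per line, differences between single lines are given without a p-value. Whether a resistant line is 1 clone or a pool is not given in the sources used here.

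E-cadherin, the product of CDH1, holds neighbouring epithelial cells together at adherens junctions by binding its like on the next cell. Claudins and occludin are membrane proteins of the tight junction, which seals the space between cells, and the claudins present in a cell set which ions pass through the seal. GRHL2 is a transcription factor that activates epithelial genes, CDH1 among them, ESRP1 directs the splicing of epithelial isoforms, and ZEB1, ZEB2, SNAI1, SNAI2, TWIST1 and TWIST2 are transcription factors known to repress CDH1.

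In the annotation used here (GENCODE 29, GRCh38), CDH1 (ENSG00000039068) lies at chr16:68737225-68835548 on the plus strand, and EPCAM (ENSG00000119888) at chr2:47345158-47387601 on the plus strand. CLDN3 (ENSG00000165215, chr7:73768997-73770270, minus strand) and CLDN4 (ENSG00000189143, chr7:73799542-73832693, plus strand) are neighbours, with 29272 bases between them. CLDN12 (ENSG00000157224) lies elsewhere on the same chromosome at chr7:90383721-90513402, on the plus strand. CLDN1 (ENSG00000163347) lies at chr3:190305701-190322475 and CLDN7 (ENSG00000181885) at chr17:7259903-7263983, both on the minus strand. OCLN (ENSG00000197822) lies at chr5:69492292-69558104 on the plus strand. CLDN7 overlaps ELP5 on the opposite strand and CLDN12 overlaps CDK14 and GTPBP10 on its own strand. The strand setting of the counting is not stated, and reads in these overlaps could have gone to either gene.

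Of the 5 claudins followed, CLDN1, CLDN3, CLDN4 and CLDN7 differed most along the DU145 lineage, and their promoters are shown for that reason. Each stretch is the 300 bases from 250 before to 50 after an annotated transcript start, taken from RefSeq on GRCh38.p14 and written 5′ to 3′ on the gene's strand: CLDN1 at chr3:190322397-190322696 (minus), CLDN3 at chr7:73770221-73770520 (minus), CLDN4 at chr7:73830746-73831045 (plus), and CLDN7 at chr17:7263164-7263463 and chr17:7262429-7262728 (both minus). Capitals mark every E-box, the letters CANNTG, which is the kind of sequence bound by the ZEB, SNAI and TWIST factors.
CLDN1: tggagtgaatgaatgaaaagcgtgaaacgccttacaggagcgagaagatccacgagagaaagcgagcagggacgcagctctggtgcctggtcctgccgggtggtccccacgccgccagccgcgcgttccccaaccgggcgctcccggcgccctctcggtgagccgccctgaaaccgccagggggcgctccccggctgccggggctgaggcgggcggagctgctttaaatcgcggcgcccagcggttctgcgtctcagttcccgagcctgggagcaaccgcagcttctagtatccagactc
CLDN3: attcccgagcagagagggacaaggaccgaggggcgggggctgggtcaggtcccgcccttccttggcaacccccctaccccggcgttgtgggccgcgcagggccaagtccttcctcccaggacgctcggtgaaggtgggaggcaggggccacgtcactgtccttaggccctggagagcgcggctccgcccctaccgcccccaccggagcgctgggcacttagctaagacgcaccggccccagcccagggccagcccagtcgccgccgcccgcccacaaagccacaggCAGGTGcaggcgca
CLDN4: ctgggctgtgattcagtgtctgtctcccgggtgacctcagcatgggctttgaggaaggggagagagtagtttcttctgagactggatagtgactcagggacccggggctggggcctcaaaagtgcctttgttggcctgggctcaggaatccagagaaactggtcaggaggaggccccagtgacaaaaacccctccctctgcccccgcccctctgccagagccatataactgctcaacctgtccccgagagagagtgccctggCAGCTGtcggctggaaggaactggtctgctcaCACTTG
CLDN7 first start: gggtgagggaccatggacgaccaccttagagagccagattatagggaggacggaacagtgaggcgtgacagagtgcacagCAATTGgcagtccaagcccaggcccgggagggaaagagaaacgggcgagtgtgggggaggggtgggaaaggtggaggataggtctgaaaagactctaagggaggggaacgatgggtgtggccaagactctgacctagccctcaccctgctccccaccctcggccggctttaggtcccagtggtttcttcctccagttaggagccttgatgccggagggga
CLDN7 second start: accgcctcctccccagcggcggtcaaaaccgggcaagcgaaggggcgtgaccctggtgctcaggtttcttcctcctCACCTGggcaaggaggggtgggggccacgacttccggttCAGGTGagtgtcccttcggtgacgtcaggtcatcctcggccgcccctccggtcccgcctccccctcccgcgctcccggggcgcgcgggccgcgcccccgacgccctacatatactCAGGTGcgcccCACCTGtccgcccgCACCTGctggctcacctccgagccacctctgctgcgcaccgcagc
The narrower letters CAGGTG or CACCTG, 1 motif read on both strands and itself a kind of CANNTG, are the E-box form best known for ZEB and SNAI factors. They occurred 5 times around the second CLDN7 start, beginning 174, 135, 20 and 9 bases before it and at base 6. Bases from the start onward are numbered with the start as base 1. The same letters occurred once in the CLDN3 window, beginning at base 37, and not in the windows of CLDN1, CLDN4, CLDN12 or the first CLDN7 start. The OCLN windows, of which there are 2, held 1 and 2 copies. Among all 35116 RefSeq promoters of that length 20.6% held this motif, and 68.7% held CANNTG. The letters AACNGGTT, which GRHL factors bind, were in none of the 8 windows of the 6 genes matched, against 1.73% of all promoters, searched on both strands. CDH1, EPCAM, ESRP1 and GRHL2 are the other members. A match describes the letters in a window and is not a binding site, and the lack of a match says nothing about a factor.

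**Figure D1:**
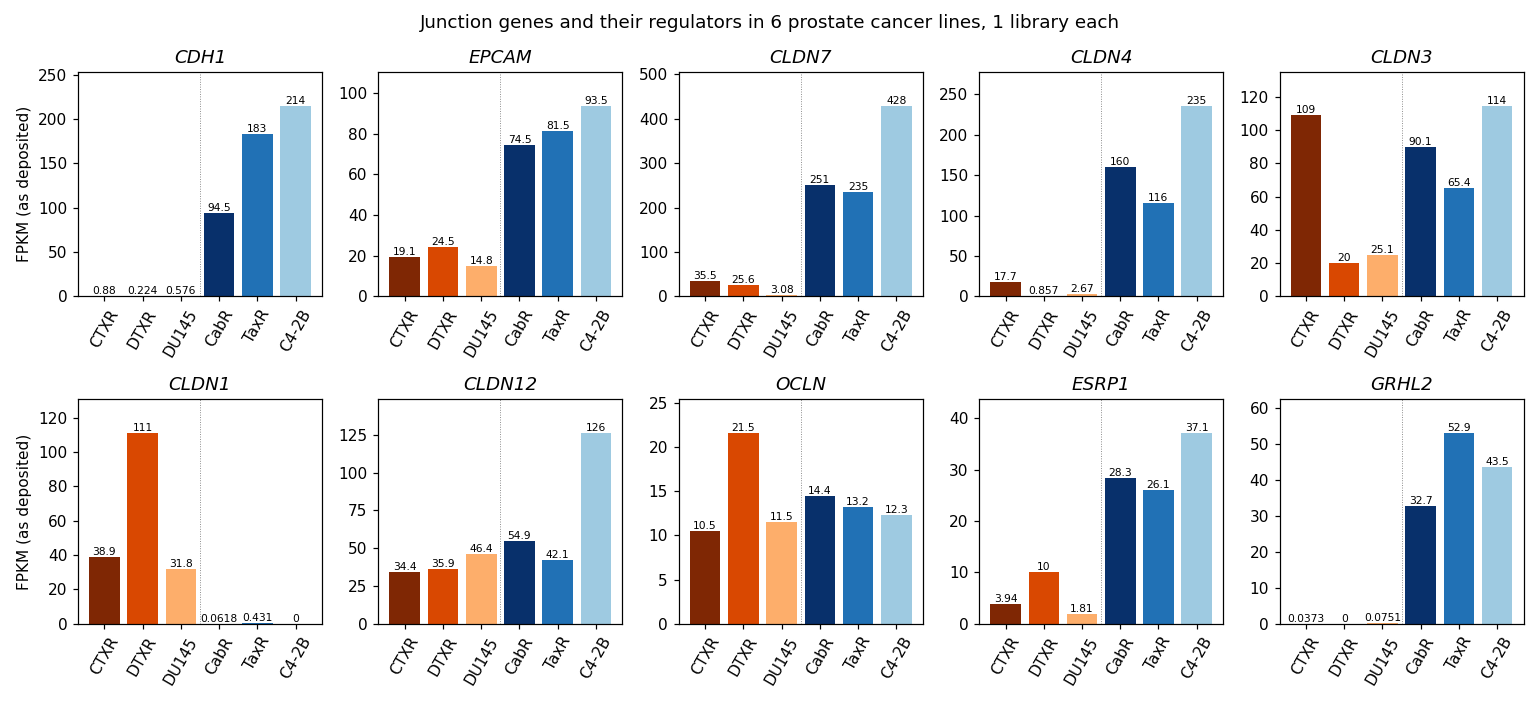
Bars give the deposited FPKM of each of the 10 genes (vertical axes, each from 0 on its own scale) in the 6 lines, 1 library each, with the value above each bar; the dotted line parts the DU145 lineage (left) from the C4-2B lineage (right). CDH1 and GRHL2 stand at 0.880 FPKM or less in the DU145 lineage and at 32.7 FPKM or more in the C4-2B lineage, CLDN1 shows the opposite, and CLDN7, CLDN4 and CLDN3 differ among the 3 DU145 lines.

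Within the DU145 lineage CLDN7, CLDN4, CLDN3, CLDN1 and ESRP1 differed between lines, while CDH1, EPCAM and OCLN differed less on the log2(FPKM + 1) scale. CLDN7 had 35.5 FPKM in CTXR and 25.6 FPKM in DTXR, against 3.08 FPKM in DU145. Both resistant lines were thus high and their parent low, 11.5-fold for CTXR and 8.32-fold for DTXR. On the log2(FPKM + 1) scale used for all comparisons, which understates the change of low genes, the differences were 3.16 for CTXR over DU145 and 2.71 for DTXR over DU145. Both comparisons share the DU145 library. These are bulk libraries, so fewer cells with a transcript and less of it per cell cannot be told apart.

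CLDN4 had 17.7 FPKM in CTXR and 0.857 FPKM in DTXR, against 2.67 FPKM in DU145. Its neighbour CLDN3 had 109 FPKM in CTXR and 20.0 FPKM in DTXR, against 25.1 FPKM in DU145. For both genes CTXR alone was high and DTXR lay below its parent. The log2 ratio of CTXR over DU145 was 2.35 for CLDN4 and 2.08 for CLDN3, and that of CTXR over DTXR was 3.33 for CLDN4 and 2.39 for CLDN3. The log2 ratio of DTXR over DU145 was -0.98 for CLDN4 and -0.31 for CLDN3. The CLDN4 ratio lay just short of a size of 1 and passed it, at -1.04, with the libraries brought to the same upper quartile. It also passed with the libraries at the same total outside mitochondrial genes, and with 0.1 added to the FPKM in place of 1.

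CLDN1 and ESRP1 had another order, with DTXR the highest. CLDN1 had 38.9 FPKM in CTXR and 111 FPKM in DTXR, against 31.8 FPKM in DU145. ESRP1 had 3.94 FPKM in CTXR and 10.0 FPKM in DTXR, against 1.81 FPKM in DU145. CTXR lay near DU145 for CLDN1 and between DU145 and DTXR for ESRP1. The log2 ratio of DTXR over DU145 was 1.77 for CLDN1 and 1.97 for ESRP1, and that of CTXR over DTXR was -1.49 for CLDN1 and -1.16 for ESRP1.

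The other 5 members differed by less than 1 on the log2(FPKM + 1) scale between all pairs of DU145-lineage lines. OCLN came close, at -0.97 for CTXR over DTXR. EPCAM, a homophilic adhesion molecule of simple epithelia, had 19.1 FPKM in CTXR and 24.5 FPKM in DTXR, against 14.8 FPKM in DU145. OCLN, the occludin gene, had 10.5 FPKM in CTXR and 21.5 FPKM in DTXR, against 11.5 FPKM in DU145. DTXR was the highest line for both. CLDN12, a claudin that lacks the PDZ-binding end of most family members, had 34.4 FPKM in CTXR and 35.9 FPKM in DTXR, against 46.4 FPKM in DU145. CDH1 differed 3.93-fold in plain FPKM between CTXR and DTXR, a difference that the added 1 shrinks at low levels. CDH1 stayed under 1 FPKM in every line, at 0.880 FPKM in CTXR, 0.224 FPKM in DTXR and 0.576 FPKM in DU145. DU145 is often described as expressing E-cadherin, so these values stand below that description, and the lines are named here as labelled. GRHL2 was lower still, at 0.0373 FPKM in CTXR and a listed 0 in DTXR, against 0.0751 FPKM in DU145. GRHL2 (ENSG00000083307, chr8:101492432-101669726) and ESRP1 (ENSG00000104413, chr8:94641074-94707466) both lie on the plus strand, in GRCh38 coordinates. The claudin differences in the resistant DU145 lines were therefore measured at E-cadherin and GRHL2 levels of at most 0.880 FPKM.

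By a size of 1 or more on the log2 scale, CTXR over DU145 had 3 members higher (CLDN3, CLDN4 and CLDN7) and 0 lower, against a background over all measured genes of 7.45% higher and 5.47% lower. DTXR over DU145 had 3 members higher (CLDN1, CLDN7 and ESRP1) and 0 lower, against 5.37% and 5.1% of all genes. CTXR over DTXR had 2 members higher (CLDN3 and CLDN4) and 2 lower (CLDN1 and ESRP1), against 7.29% and 5.25%. The members' median log2 ratio was 0.32 for CTXR over DU145, 0.29 for DTXR over DU145 and 0.00 for CTXR over DTXR, and the median of all measured genes was 0 in each.

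In the C4-2B lineage every member except CLDN1 had at least 12.3 FPKM in all 3 lines, and both resistant lines lay below their parent for 7 of the 10 members. Both comparisons share the C4-2B library, and the share of all genes with this order was not counted. CDH1 had 94.5 FPKM in CabR and 183 FPKM in TaxR, against 214 FPKM in C4-2B. The log2 ratio was -1.17 for CabR over C4-2B, -0.23 for TaxR over C4-2B and -0.94 for CabR over TaxR. CabR was thus the lowest of the 3 lines, at 0.441 times the C4-2B level. GRHL2 had 32.7 FPKM in CabR and 52.9 FPKM in TaxR, against 43.5 FPKM in C4-2B, so that CabR was again the lowest line, with a log2 ratio of -0.40 over C4-2B and -0.68 over TaxR. ESRP1 had 28.3 FPKM in CabR and 26.1 FPKM in TaxR, against 37.1 FPKM in C4-2B.

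CLDN12 had 54.9 FPKM in CabR and 42.1 FPKM in TaxR, against 126 FPKM in C4-2B, a log2 ratio of -1.18 for CabR and -1.56 for TaxR. The parental C4-2B library was the single high value, with all other libraries, those of the DU145 lineage included, between 34.4 and 54.9 FPKM. CLDN7 had 251 FPKM in CabR and 235 FPKM in TaxR, against 428 FPKM in C4-2B. CLDN4 had 160 FPKM in CabR and 116 FPKM in TaxR, against 235 FPKM in C4-2B, and CLDN3 had 90.1 FPKM in CabR and 65.4 FPKM in TaxR, against 114 FPKM in C4-2B. For these 3 claudins C4-2B was the highest line and TaxR the lowest. The CLDN4 ratio of TaxR over C4-2B, -1.02, just passed a size of 1 and fell short of it, at -0.97 to -0.99, under each of 3 rescalings of the libraries.

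EPCAM had 74.5 FPKM in CabR and 81.5 FPKM in TaxR, against 93.5 FPKM in C4-2B, and OCLN had 14.4 FPKM in CabR and 13.2 FPKM in TaxR, against 12.3 FPKM in C4-2B. Both genes varied little among these lines, with log2 ratios between -0.32 and 0.21 in the 3 pairs. CLDN1 had 0.0618 FPKM in CabR and 0.431 FPKM in TaxR, and C4-2B lists it at 0. By size CabR over C4-2B had 0 members higher and 2 lower (CDH1 and CLDN12), against 2.67% and 6.2% of all genes, and TaxR over C4-2B had 0 higher and 2 lower (CLDN4 and CLDN12), against 2.52% and 5.64%. CabR over TaxR had 0 members past a size of 1 in either direction, against 1.75% higher and 1.84% lower of all genes. The members' median log2 ratio was -0.39 for CabR and -0.36 for TaxR over C4-2B, 2 comparisons that share the C4-2B library, and 0.10 for CabR over TaxR. The median of all genes was 0.00 in each.

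**Figure D2:**
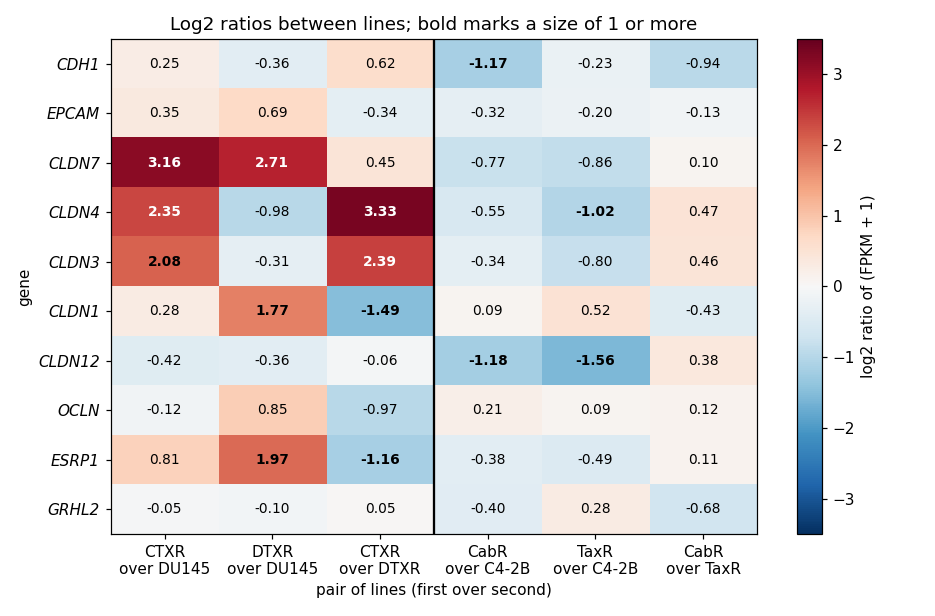
Each cell gives the log2 ratio of (FPKM + 1) of 1 gene (rows) for 1 pair of lines (columns, first line over second), from 1 library per line; red is higher and blue lower in the first line, and bold marks a size of 1 or more. The 3 columns of the DU145 lineage hold ratios up to 3.33 (CLDN4, CTXR over DTXR), and those of the C4-2B lineage hold ratios down to -1.56 (CLDN12, TaxR over C4-2B).

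The TaxR library also held low levels of transcripts typical of DU145. A list of DU145-side transcripts, drawn up with earlier results of these data known, held S100A6, ANXA1, AXL, CAV1, CD44, KRT7, UCHL1 and DKK1. All 8 were higher by size in TaxR than in C4-2B, against 2.52% of all genes, which describes a chosen list and is no test. The sum of the 8 was 26.4 FPKM in TaxR, against 0.808 FPKM in C4-2B. In CabR the sum was 3.27 FPKM. In TaxR each stood at 0.362% to 5.67% of its DU145 level, while CLDN1 stood at 1.35% and ZEB1 at 2.50%. The part of these transcripts in the TaxR values of CLDN1 and ZEB1 was not tested.

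The resistant lines of a lineage were tested against their parent in limma fits over all 17436 measured genes, with Benjamini-Hochberg adjustment. The CLDN7 estimate on the log2 scale was 2.93 in the DU145 lineage (SE 0.26, adjusted p = 0.143) and -0.82 in the C4-2B lineage (SE 0.26, adjusted p = 0.501). The difference of these changes was 3.75 (SE 0.36), with an unadjusted limma p of 5.7e-04 and an adjusted p of 0.342, so it did not pass 0.05. Without the DTXR library the CLDN7 change in the DU145 lineage is that of CTXR alone over DU145 alone, 3.16. That fit takes all its spread from CabR and TaxR, so no p-value is given for it. CLDN12 in the resistant C4-2B lines had an estimate of -1.37 (SE 0.23, adjusted p = 0.319). By limma 0 genes of 17436 passed an adjusted p of 0.05 for the resistant lines against their parent in either lineage (1559 in the DU145 lineage and 1597 in the C4-2B lineage at an unadjusted p under 0.05), and 0 for the difference between lineages (1660 unadjusted). With 1 library fewer, 413 genes passed in the DU145 lineage without CTXR and 519 without DTXR, and 344 and 442 passed for the difference between lineages. In these fits each DU145-lineage group is 1 library, assumed to vary as CabR and TaxR do, so the counts are no test of spread within the DU145 lineage. Pooled over both lineages, 0 genes passed for docetaxel-resistant over parental lines (772 unadjusted) and 0 for cabazitaxel-resistant over parental lines (835 unadjusted), a background of 0% for each.

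For 7 of the 10 members the estimate between lineages was larger than any ratio between 2 lines of 1 lineage. For CLDN3, CLDN12 and OCLN it was smaller, and the same count was not made over all genes. On the log2(FPKM + 1) scale CDH1 averaged 0.62 ± 0.31 in the DU145 lineage and 7.28 ± 0.62 in the C4-2B lineage (SD, n = 3 lines each), a difference of -6.66 (SE 0.34, adjusted p = 6.8e-05 by limma with stage as a term). GRHL2 averaged 0.05 ± 0.05 in the DU145 lineage and 5.43 ± 0.34 in the C4-2B lineage, a difference of -5.38 (SE 0.25, adjusted p = 5.9e-05). CLDN1 showed the reverse, with 5.72 ± 0.95 in the DU145 lineage and 0.20 ± 0.28 in the C4-2B lineage, a difference of 5.52 (SE 0.31, adjusted p = 8.2e-05). The 2 lineages did not overlap for these 3 genes, and how many of all genes do the same was not counted. All 3 lines of a lineage descend from 1 parental line, so these p-values measure the spread among related lines.

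CLDN4, with a difference of -5.03 (SE 0.56), CLDN7 with -4.22 (SE 0.71), ESRP1 with -2.54 (SE 0.44) and EPCAM with -2.06 (SE 0.24) were also lower in the DU145 lineage. For these genes too the lines of the lineages did not overlap, again with no count over all genes. Their adjusted p-values were 9.3e-04 for CLDN4, 0.0047 for CLDN7, 0.0053 for ESRP1 and 0.0011 for EPCAM. CLDN3 had an estimate of -1.18 (adjusted p = 0.073), CLDN12 of -0.77 (adjusted p = 0.057) and OCLN of 0.05 (adjusted p = 0.888), and the lineages overlapped for all 3. In all, 6 members were lower and 1 higher, against a background of 20.3% lower and 18.7% higher of all genes. Leaving out 1 library also removes the line of the same stage in the other lineage from the estimate, so the 6 fits amount to 3 distinct checks. CDH1, CLDN1, CLDN4, EPCAM and GRHL2 passed in all of them. CLDN7 lost its call without CTXR, DTXR, CabR or TaxR (adjusted p up to 0.059), and ESRP1 without CTXR, DU145, CabR or C4-2B (adjusted p up to 0.095). CLDN3 passed without CTXR or without CabR (adjusted p = 0.031 in each).

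DU145 over C4-2B had 1 member higher (CLDN1) and 8 lower, with OCLN the exception, against 17.3% and 19.5% of all genes. CTXR over CabR, the 2 cabazitaxel-resistant lines, had 1 higher (CLDN1) and 6 lower (CDH1, CLDN4, CLDN7, EPCAM, ESRP1 and GRHL2), against 20% and 17.7%. CLDN3, with 109 FPKM in CTXR and 90.1 FPKM in CabR, was within a log2 size of 1 between the resistant lines, whereas DU145 had 25.1 FPKM and C4-2B 114 FPKM.

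**Figure D3:**
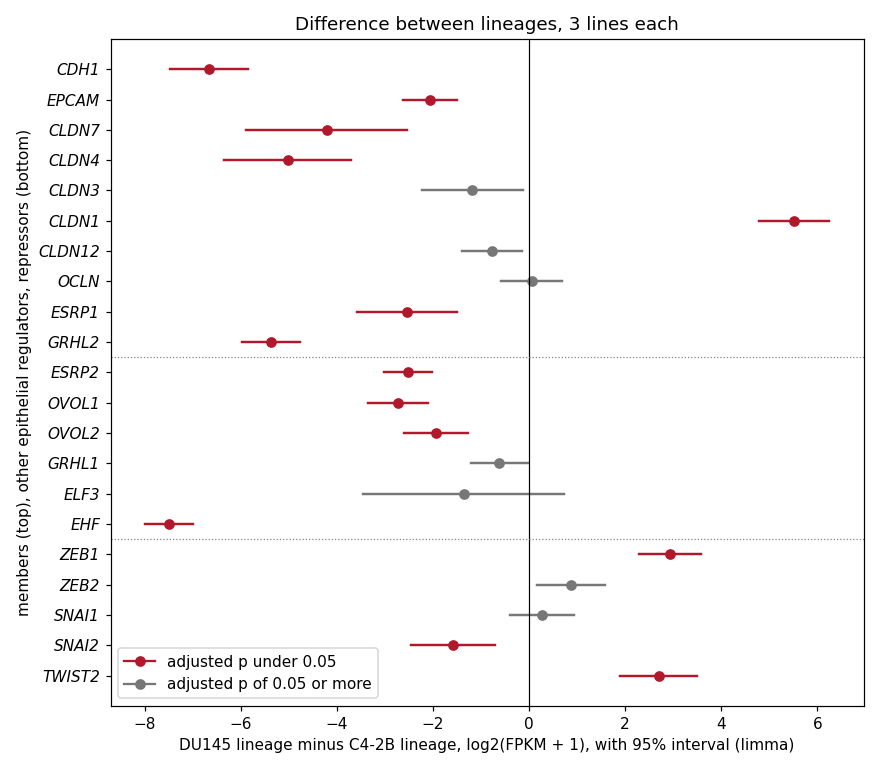
Points give limma estimates of the DU145 lineage minus the C4-2B lineage on the log2(FPKM + 1) scale (horizontal axis). Bars are 95% intervals from 3 lines per lineage, and red points have an adjusted p under 0.05. The 10 members are at the top and repressors of CDH1 at the bottom. In the middle are the regulators ESRP2, OVOL1, OVOL2, GRHL1, ELF3 and EHF. The regulators KLF5 and TFAP2A, both higher in the DU145 lineage by limma, and TFAP2C are not drawn. Among the genes drawn, CDH1, GRHL2 and EHF lie at -5.38 or below, and CLDN1, ZEB1 and TWIST2 at 2.70 or above.

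CLDN7 was the most abundant member in CabR, TaxR and C4-2B, with CLDN4 and CDH1 next in all 3 lines. In the DU145 lineage the most abundant member differed by line, being CLDN3 in CTXR, CLDN1 in DTXR and CLDN12 in DU145. GRHL2 was the lowest member in all 3 DU145-lineage lines and CLDN1 the lowest in all 3 C4-2B-lineage lines. OCLN had the narrowest range of the 10 members, from 10.5 to 21.5 FPKM over the 6 lines.

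Summed over the 5 claudins, the level was 235 FPKM in CTXR and 193 FPKM in DTXR, against 109 FPKM in DU145. In the other lineage it was 556 FPKM in CabR and 458 FPKM in TaxR, against 904 FPKM in C4-2B. Both resistant DU145 lines lay above their parent and both resistant C4-2B lines below theirs, and no DU145-lineage sum reached that of any C4-2B-lineage line. CLDN3 made up 46.3% of the claudin sum in CTXR and 10.3% in DTXR, against 23.0% in DU145. CLDN1 made up 16.5% in CTXR and 57.4% in DTXR, against 29.2% in DU145, and CLDN12 made up 14.6% in CTXR and 18.6% in DTXR, against 42.5% in DU145. Each DU145-lineage line thus had a different leading claudin, whereas CLDN7 led in the C4-2B lineage with 45.1% in CabR and 51.2% in TaxR, against 47.3% in C4-2B.

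**Figure D4:**
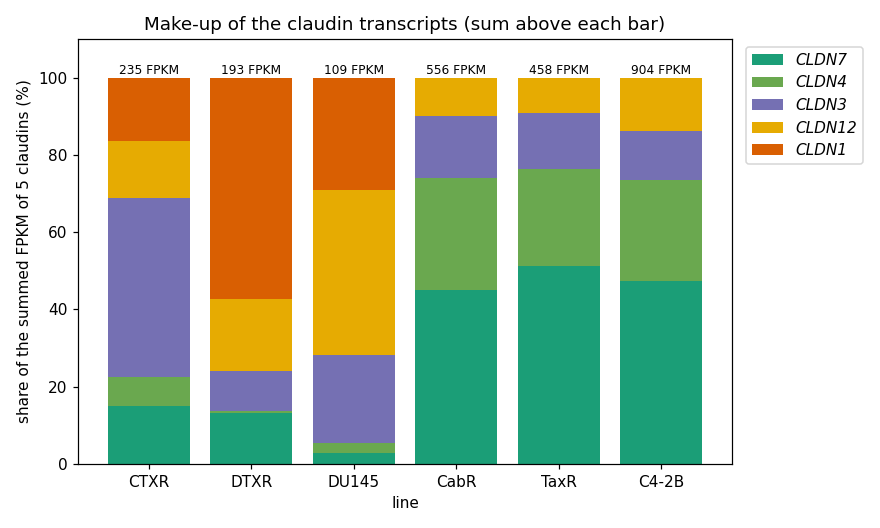
Stacked bars give the share of each of 5 claudins (vertical axis, percent) in their summed FPKM, which is printed above each bar, for the 6 lines with 1 library each. CLDN1 takes 16.5% to 57.4% in the DU145 lineage and at most 0.0941% in the C4-2B lineage, where CLDN7 and CLDN4 take most of the sum.

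Of the repressors of CDH1, ZEB1 and TWIST2 differed by less than 1 on the log2(FPKM + 1) scale between the lines of a lineage. ZEB1 had 8.06 FPKM in CTXR and 6.52 FPKM in DTXR, against 6.89 FPKM in DU145, and TWIST2 had 5.77 FPKM in CTXR and 9.77 FPKM in DTXR, against 9.83 FPKM in DU145. In the C4-2B lineage ZEB1 was listed at 0 in CabR and had 0.172 FPKM in TaxR, against 0.0412 FPKM in C4-2B, and TWIST2 had 0.706 FPKM in CabR and 0.698 FPKM in TaxR, with a 0 listed for C4-2B. Both were higher in the DU145 lineage, ZEB1 by 2.93 (SE 0.27, adjusted p = 4.6e-04) and TWIST2 by 2.70 (SE 0.34, adjusted p = 0.0015). ZEB2 stayed between 0.711 and 1.15 FPKM in the DU145 lineage and at most at 0.0804 FPKM in the C4-2B lineage, a difference of 0.87 (adjusted p = 0.058). TWIST1 did not exceed 0.0607 FPKM in any line.

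The SNAI genes varied within lineages. SNAI2 had 0.0258 FPKM in CTXR and 2.39 FPKM in DTXR, against 0.0351 FPKM in DU145, and in the other lineage 1.08 FPKM in CabR and 6.98 FPKM in TaxR, against 4.89 FPKM in C4-2B. Each docetaxel-resistant line was thus the highest of its lineage, with a log2 ratio of 1.71 for DTXR over DU145 and 0.44 for TaxR over C4-2B, and CabR was at -1.50 over C4-2B. SNAI1 had 3.72 FPKM in CTXR and 1.53 FPKM in DTXR, against 6.39 FPKM in DU145, and 2.54 FPKM in CabR and 1.94 FPKM in TaxR, against 3.88 FPKM in C4-2B. Each docetaxel-resistant line was the lowest of its lineage for SNAI1. By limma SNAI2 was lower in the DU145 lineage, with an estimate of -1.59 (adjusted p = 0.015), although the lines of the lineages overlapped. The cadherins often gained where CDH1 is lost, CDH2 and CDH11, stayed under 1 FPKM in all lines, at 0.0551 FPKM or less for CDH2 and 0.688 FPKM or less for CDH11.

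Of the other epithelial transcription and splicing regulators, ELF3 differed most along a lineage. This ETS-family factor had 31.5 FPKM in CTXR and 1.59 FPKM in DTXR, against 0.0303 FPKM in DU145, and 10.6 FPKM in CabR and 7.31 FPKM in TaxR, against 14.4 FPKM in C4-2B. CTXR was the highest of all 6 lines, with a log2 ratio of 4.98 over DU145, and DTXR followed with 1.33. EHF, another ETS factor of epithelia, had at most 0.0425 FPKM in the DU145 lineage and 171 to 211 FPKM in the C4-2B lineage, a difference of -7.50 (adjusted p = 3.1e-05). The AP-2 factor gene TFAP2C had 10.8 FPKM in CTXR and 0.848 FPKM in DTXR, against 12.2 FPKM in DU145, and TFAP2A had 24.5 FPKM in CTXR and 8.65 FPKM in DTXR, against 32.2 FPKM in DU145. DTXR was the low line for both. Of 9 measured regulators 4 were lower in the DU145 lineage by limma, EHF, ESRP2, OVOL1 and OVOL2, and 2 were higher, KLF5 and TFAP2A, against 20.3% lower and 18.7% higher of all genes. GRHL1, a paralog of GRHL2, had 3.16 to 3.65 FPKM in the DU145 lineage and 4.62 to 6.34 FPKM in the C4-2B lineage and did not pass.

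Among surface and proteolysis genes, 7 of 9 were lower in the DU145 lineage by limma and 0 higher, against 20.3% and 18.7% of all genes. The membrane protease gene ST14 (matriptase) had an estimate of -5.60, the protease gene PRSS8 (prostasin) of -5.66, the vesicle transport gene RAB25 of -5.67 and the protease inhibitor gene SPINT1 of -3.98, with adjusted p-values of 7.8e-05 or less. The inhibitor gene SPINT2 was abundant in both lineages, with 243 FPKM in CTXR and 111 FPKM in DTXR, against 55.4 FPKM in DU145, and 181 FPKM in CabR and 208 FPKM in TaxR, against 268 FPKM in C4-2B. Its log2 ratio of CTXR over DU145 was 2.11. That of the mucin gene MUC1 was 1.32, with 36.7 FPKM in CTXR and 9.99 FPKM in DTXR, against 14.1 FPKM in DU145.

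Of 12 polarity genes, 4 were higher by size in CTXR over DU145 and 0 lower, against 7.45% and 5.47% of all genes. CRB3, a membrane protein that marks the apical side, had 11.4 FPKM in CTXR and 12.0 FPKM in DTXR, against 3.11 FPKM in DU145, and was higher in both resistant lines. LLGL2, a basolateral polarity protein gene, had 36.2 FPKM in CTXR and 12.7 FPKM in DTXR, against 10.6 FPKM in DU145, and PARD6A had 16.0 FPKM in CTXR and 8.53 FPKM in DTXR, against 6.09 FPKM in DU145. PARD6B was the fourth. By limma 3 polarity genes were higher and 4 lower in the DU145 lineage, where 18.7% and 20.3% of all genes were.

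The cytoplasmic partners of E-cadherin were present in every line. CTNNA1 (alpha-catenin) had 75.9 to 89.8 FPKM in the DU145 lineage and 81.8 to 99.9 FPKM in the C4-2B lineage, and CTNND1 (p120-catenin) 43.8 to 45.7 FPKM in the DU145 lineage and 55.1 to 62.6 FPKM in the C4-2B lineage. JUP (plakoglobin) had 54.6 FPKM in CTXR and 8.58 FPKM in DTXR, against 80.6 FPKM in DU145, so that DTXR was low, with a log2 ratio of -3.09. NECTIN3, an adhesion molecule, had 1.28 FPKM in CabR and 8.06 FPKM in TaxR, against 0.625 FPKM in C4-2B, with TaxR the high line, and NECTIN1 was higher in DTXR over DU145 by 1.03, or 0.96 with the libraries at the same upper quartile. Of 11 adherens junction genes 3 were higher and 2 lower in the DU145 lineage by limma, shares near the 18.7% and 20.3% of all genes.

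Of 16 measured tight junction genes outside the members, 2 were higher and 6 lower in the DU145 lineage by limma, against 18.7% and 20.3% of all genes. CLDN11 had 2.75 FPKM in CTXR and 0.496 FPKM in DTXR, against 11.03 FPKM in DU145, so that both resistant lines were low, opposite to CLDN7. TJP3, a scaffold protein gene, had 5.97 FPKM in CTXR and 0.233 FPKM in DTXR, against 3.40 FPKM in DU145, and CLDN23 had 8.79 FPKM in CTXR and 4.44 FPKM in DTXR, against 2.28 FPKM in DU145. Of 8 measured desmosome genes 1 was higher and 2 lower in the DU145 lineage, near those same shares. DSP (desmoplakin) had 20.1 FPKM in CabR and 30.8 FPKM in TaxR, against 64.4 FPKM in C4-2B, and 12.5 FPKM in CTXR and 27.4 FPKM in DTXR, against 30.8 FPKM in DU145. In all, 70 of 81 listed pathway genes were measured. By size 8 were higher and 3 lower in CTXR over DU145 (7.45% and 5.47% of all genes), and 5 and 6 in DTXR over DU145 (5.37% and 5.1%). In the other lineage 0 were higher and 4 lower in CabR over C4-2B (2.67% and 6.2%), and 2 and 3 in TaxR over C4-2B (2.52% and 5.64%). The listed genes as a whole thus passed the size limit about as often as all genes.

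**Figure D5:**
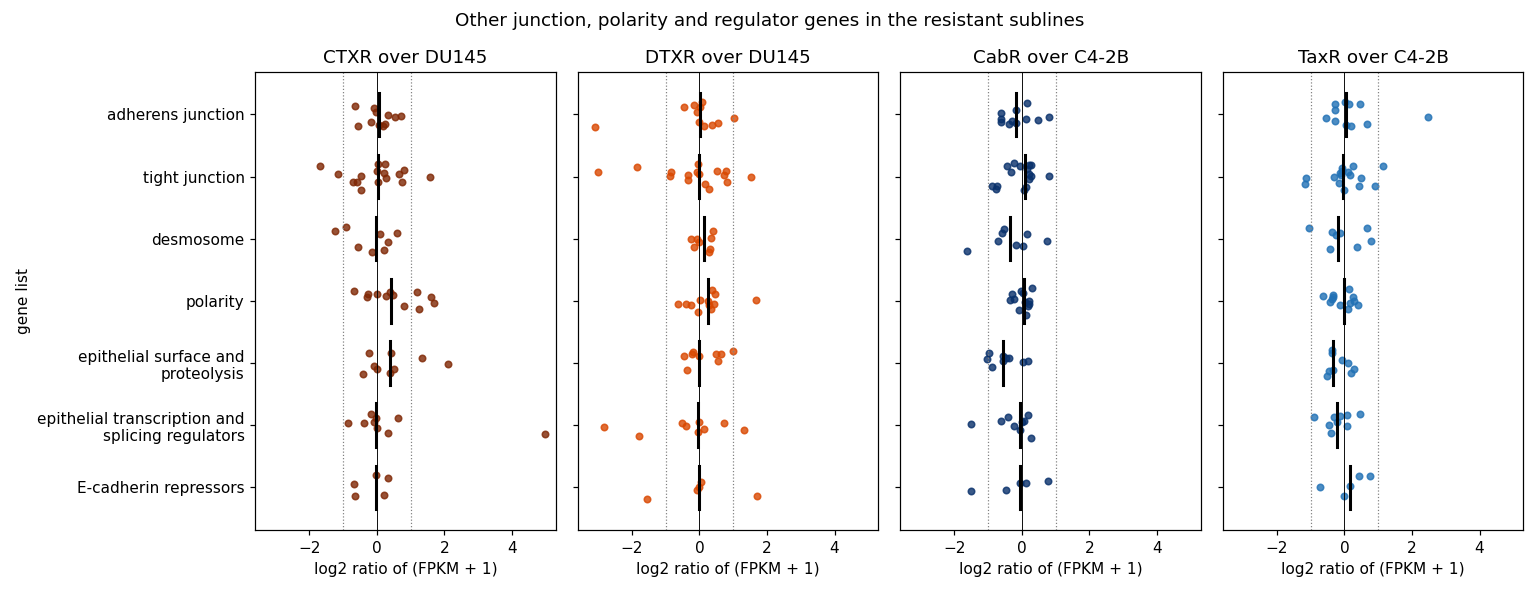
Each point is 1 measured gene outside the 10 members, placed by its log2 ratio of (FPKM + 1) between a resistant line and its parent (horizontal axes) in 7 gene lists (rows), with 1 library per line; black bars mark list medians and dotted lines a size of 1. The polarity list has 4 of 12 genes past 1 in CTXR over DU145, and the point at 4.98 is ELF3.

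CDH1 was compared with 9269 other coding genes of at least 10 FPKM in some library for the likeness of their log2 profile over the 6 lines. The 5 closest were SPDEF, HOXB13, AZGP1, LRRC26 and MLPH, with a root mean square difference of 0.27 to 0.47 on the log2 scale after centring. SPDEF had at most 0.160 FPKM in the DU145 lineage and 81.0 FPKM in CabR and 115 FPKM in TaxR, against 118 FPKM in C4-2B. Among the members themselves the closest pair was EPCAM and ESRP1, at 0.45, followed by CDH1 and GRHL2, at 0.70. The likeness is a description over 6 libraries that mostly separate by lineage.

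The lines were checked against lineage markers. The luminal prostate genes KLK3, KLK2, TMPRSS2, HOXB13 and FOLH1 stayed below 1 FPKM in CTXR, DTXR and DU145, and each was above it in CabR, TaxR and C4-2B. KLK3, the gene of prostate-specific antigen, reached only 0.301 FPKM in CTXR and 0.148 FPKM in DTXR, and DU145 lists it at 0, while it had 841 FPKM in CabR, 3053 FPKM in TaxR and 3567 FPKM in C4-2B. The simple epithelial keratins KRT8, KRT18 and KRT19 were present in every line, with a sum of 205 to 460 FPKM in the DU145 lineage and 403 to 754 FPKM in the C4-2B lineage. VIM, the vimentin gene of the mesenchymal list, had 491 to 613 FPKM in the DU145 lineage and 41.3 to 61.0 FPKM in the C4-2B lineage. FN1, the fibronectin gene of the same list, went the other way, with 4.28 FPKM in CTXR and 3.79 FPKM in DTXR, against 2.12 FPKM in DU145, and with 854 FPKM in CabR and 662 FPKM in TaxR, against 71.7 FPKM in C4-2B. Of the 4 measured genes of that list 2 were higher and 2 lower in the DU145 lineage by limma. Leukocyte markers summed to at most 0.519 FPKM in any line and endothelial markers to at most 1.96 FPKM, and fibroblast markers to between 3.91 and 13.7 FPKM. The total FPKM lay between 711766 and 818430 per library and the share of mitochondrial genes between 17.9% in C4-2B and 40.7% in DU145, and read depth is unknown.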

How the data were processed

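RNA was measured in 6 prostate cancer lines with 1 library each, grouped by the sample labels into 2 lineages of 3. Per the labels' protocols, TRIzol-extracted total RNA was made into stranded mRNA libraries. HISAT, StringTie, Cuffnorm and the build GRCh38 are named in the submitters' processing notes. Versions, annotation, strand setting and whether libraries were scaled jointly are not stated there. Per the file headers, FPKM for 60658 gene identifiers were deposited by the authors for each library. FPKM are model-based estimates in which an exact 0 can be a failed estimate, and they are not counts, so no count model was fitted. Depth is unknown and limits precision by an unknown amount.

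The deposited FPKM were converted to log2(FPKM + 1) with no rescaling. Measured genes were the 17436 with at least 1 FPKM in at least 1 library. Pairs of lines were compared without p-values, by a size limit of 1 on the log2 ratio. limma with an intensity trend, two-sided tests and Benjamini-Hochberg adjustment over measured genes was fitted with lineage and stage as terms, and with lineage, resistance and their interaction for changes within lineages. Alternatives were a pseudocount of 0.1, 3 rescalings, size limits of 0.5 and 1.5, other filters and limma settings, and leaving out each library. limma was tested on simulated data. Symbols came from a name table (56550 identifiers matched), coordinates from GENCODE 29, and promoters from RefSeq (GRCh38.p14), with 6 of 10 members matched.

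The 10 genes and all lists were chosen with earlier results of these data known. Some listed marker genes are not reported here. Named genes are all members and repressors, up to 3 genes per list with the largest change past the size limit in a subline, and the 5 genes most like CDH1. Other genes in the lists and all neighbours on a chromosome were named after their values were seen. Whether the lines came from separate cultures is not stated, so p-values measure only the spread between these samples. The software was R 4.3.3 (limma 3.58.1) and Python 3.11.15 (numpy 2.4.6, pandas 2.3.3, matplotlib 3.10.9).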

Additional observations from a re-analysis of the deposited data

Results flagged for a closer look

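In 26 of 105 measured genes of the lists used (24.8%), both resistant lines of one lineage lay on the other side of their parent from both resistant lines of the other lineage, against 20.9% of all 17436 measured genes, so such a pattern was about as frequent in the lists as elsewhere. The difference between the lineages was tested in limma (DU145-lineage change minus C4-2B-lineage change on the log2 scale), and no gene passed an adjusted p of 0.05. Among the members, CLDN7 had a difference of 3.75 (SE 0.36, unadjusted p = 5.7e-04, adjusted p = 0.342). For ESRP1 it was 1.83 (SE 0.78, adjusted p = 0.575), with log2 ratios of 0.81 for CTXR and 1.97 for DTXR over DU145, and -0.38 for CabR and -0.49 for TaxR over C4-2B. For EPCAM it was 0.78 (SE 0.33, adjusted p = 0.569), with ratios of 0.35 for CTXR, 0.69 for DTXR, -0.32 for CabR and -0.20 for TaxR over their parents.

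Outside the members ELF3 had a difference of 3.81 (SE 2.31), with log2 ratios of 4.98 for CTXR and 1.33 for DTXR over DU145, and -0.41 for CabR and -0.89 for TaxR over C4-2B. Among surface and proteolysis genes the difference was 2.01 for SPINT2, 1.11 for PRSS8, 1.02 for ST14 and 0.99 for CDS1. Among polarity genes it was 1.13 for PARD6B, 0.40 for LLGL1 and -0.25 for SCRIB. Among tight junction genes it was 0.80 for CXADR, 0.41 for MARVELD2, -0.94 for CLDN9 and -2.70 for CLDN11. Among adherens junction and desmosome genes it was 0.90 for VCL, 0.87 for DSC2, 0.57 for NECTIN2, -0.83 for CTNNB1 and -2.22 for JUP. The regulator OVOL1 stood at -0.12 and the repressor TWIST2 at -1.11. Of the marker genes, KLK3 stood at 1.44, VIM at 0.52, AXL at -1.52 and DKK1 at -2.54. Adjusted p-values of the genes in this paragraph were between 0.376 (DKK1) and 0.919 (OVOL1).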

How the results depend on the processing

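No paired analysis was possible because replicate numbers pair nothing with 1 library per line; the stage term of the lineage fit already sets lines of the same stage against each other. The number of members past the size limit moved by more than 1.5 times as follows, and other counts changed by at most 1. With a pseudocount of 0.1, DTXR over DU145 had 2 lower, TaxR over C4-2B 1 higher and CabR over TaxR 1 lower. TaxR over C4-2B had 1 lower under each of 3 rescalings, and DTXR over DU145 had 1 lower with the same upper quartile or the same total outside mitochondrial genes. With a limit of 0.5, DTXR over DU145 had 5 higher and 1 lower, CabR over C4-2B 4 lower, TaxR over C4-2B 1 higher and 4 lower, and CabR over TaxR 2 lower. With a limit of 1.5, CTXR over DTXR had 0 lower, CabR over C4-2B 0 lower and TaxR over C4-2B 1 lower. The median of all genes moved by over 0.1 only in DU145 over C4-2B with the same total outside mitochondrial genes, to 0.17. In limma, cabazitaxel-resistant over parental had 1 gene with a pseudocount of 0.1. With no filter on low values, 384 genes passed for the resistant lines in the DU145 lineage, 487 in the C4-2B lineage and 582 for the difference between lineages; with a filter at 5 FPKM 1 passed in the DU145 lineage and 2 in the C4-2B lineage. With no filter CLDN7 and ESRP1 lost their lineage call (adjusted p = 0.057 and 0.053). Leaving out 1 library, 1945 to 3267 genes passed between lineages against 6801 with all, 0 to 519 for the resistant lines in the DU145 lineage (413 without CTXR, 519 without DTXR) and 0 to 442 for the difference between lineages (344 without CTXR, 442 without DTXR). Members among them numbered 0 to 1, CLDN7 without DTXR; each DU145-lineage group is then 1 library, with its spread taken from CabR and TaxR. The OCLN estimate between lineages, 0.05 with all libraries, lay between -0.25 and 0.29, with -0.25 without DTXR or TaxR. The cause was not tested. Depth is unknown, 1 library per line leaves line and library inseparable, and stage fits with a library left out rest on a lone line of that stage.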

Other observations

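Coding genes within 500 kb of the members were compared in the same way, and those named here were chosen after their values were seen. Of 18 measured coding neighbours of CLDN3, 6 were higher by size in CTXR over DU145 and 0 lower, against 7.45% and 5.47% of all genes. The 6 were ABHD11, STX1A, LIMK1, TMEM270, VPS37D and CLDN4, the last itself a member. In DTXR over DU145, 4 neighbours were higher and 2 lower, against 5.37% and 5.1% of all genes. STX1A had 54.9 FPKM in CTXR and 59.8 FPKM in DTXR, against 16.2 FPKM in DU145, and LIMK1 had 25.4 FPKM in CTXR and 37.2 FPKM in DTXR, against 9.76 FPKM in DU145. These genes were thus higher in both resistant lines, whereas CLDN3 and CLDN4 were higher in CTXR only by size. ABHD11 had 31.1 FPKM in CTXR and 14.7 FPKM in DTXR, against 12.0 FPKM in DU145, with CTXR the high line as for CLDN3.

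Of 46 measured coding neighbours of CLDN7, 4 were higher and 0 lower in CTXR over DU145, and 2 were higher and 4 lower in DTXR over DU145, against 7.45% and 5.47% of all genes for CTXR and 5.37% and 5.1% for DTXR. Of those higher, CD68 was so in both lines, as CLDN7 was, with 25.8 FPKM in CTXR and 82.4 FPKM in DTXR, against 9.07 FPKM in DU145. In the other lineage CD68 had 0.862 FPKM in CabR and 2.44 FPKM in TaxR, against 6.81 FPKM in C4-2B. ELP5, which overlaps CLDN7 on the opposite strand, had 73.2 FPKM in CTXR and 75.5 FPKM in DTXR, against 64.0 FPKM in DU145, a range far narrower than that of CLDN7. CLDN1 had 2 measured coding neighbours. P3H2, a collagen-modifying enzyme gene, had 6.04 FPKM in CTXR and 16.2 FPKM in DTXR, against 3.17 FPKM in DU145. For P3H2 DTXR was the highest, as for CLDN1. The other neighbour, IL1RAP, did not share this order, with 6.93 FPKM in CTXR and 15.6 FPKM in DTXR, against 16.4 FPKM in DU145. CLDN12 lies 2.67 Mb from ABCB1, the multidrug transporter gene, and its level was lower in CTXR and DTXR than in DU145 by less than 1 on the log2 scale.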
